A study of Saccharomyces cerevisiae with 10 samples.

Results

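The 10 genes described here encode subunits of the DNA polymerases that copy the nuclear genome of budding yeast: POL1, POL12, PRI1 and PRI2 of polymerase alpha-primase, POL3, POL31 and POL32 of polymerase delta, and POL2, DPB2 and DPB3 of polymerase epsilon. They were chosen by name from 5989 coding sequences in the deposited table, all 10 were found there, and all 10 passed the filter on low counts. POL32 is named in the title of the study. RNA was taken from wild-type BY4741, a haploid MATa laboratory strain that lacks the marker genes URA3, LEU2, HIS3 and MET17, grown in synthetic complete medium. KCl was added to 1.5 M, and poly(A) RNA was sequenced from untreated cells (0 h, the controls) and after 0.5, 1, 1.5 and 2 h in KCl. Each of the 5 times had 2 libraries, 1 from time series a and 1 from time series b, which makes 10 libraries without a parallel culture kept free of KCl.

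Replication of each chromosome needs these 3 enzymes in turn. Polymerase alpha-primase makes a short RNA primer and extends it with DNA. Polymerase epsilon then carries most synthesis of the leading strand, and polymerase delta that of the lagging strand, where it also fills the gap between fragments. In dividing yeast many genes of DNA replication are transcribed in a burst as cells pass from G1 into S phase. That burst is driven largely by MBF, a factor that binds a sequence called the MluI cell cycle box, with the core ACGCGT.

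Reads counted per library came to between 3372373 and 4913739 in series a. Series b had 4676814 at 0 h and between 7851019 and 8325291 later. Levels are CPM, read counts set against the scaled size of each library, and are shares of the poly(A) RNA sequenced, so a change in RNA per cell cannot be told apart from a change in that share. The labelled strain was checked by its markers. LEU2 and MET17 had 0 reads in all 10 libraries, HIS3 had 0 to 7 and URA3 had 0 to 5, except that the 0.5 h library of series a held 162 URA3 reads (37.6 CPM), against the deletion in this strain. The call of each of the 10 genes in each of 7 comparisons was the same without that library. For some other gene lists counts without it are given below, and not all calls there stayed the same. The RNase H genes and the MATa markers were among the lists whose calls at 0.5 h changed. The correlations between profiles and the counts of libraries that do not overlap were not recomputed without it. The 4 MATa markers (MFA1, MFA2, STE2 and STE6) summed to 2137 and 2319 CPM at 0 h and to 599 and 617 CPM at 1.5 h, while the 3 MATalpha markers (MF(ALPHA)1, MF(ALPHA)2 and STE3) summed to 24.2 and 27.6 CPM and then to 67.1 and 71.2 CPM. None of the 7 stood at 0. At 0.5 h the sums were 2130 and 2343 CPM for MATa and 24.4 and 25.9 CPM for MATalpha, overlapping those of 0 h. Single MATalpha markers moved in opposite directions there: MF(ALPHA)1 was called higher (log2 fold change 2.12) and MF(ALPHA)2 lower (-0.73). The change of MF(ALPHA)1 rests on few reads, 4 in each 0 h library and 11 and 37 at 0.5 h. In the fit of all 10 libraries, STE3 and the 4 MATa markers were not called at 0.5 h. The median log2 change of the MATa markers was 0.01 there, and 0.07 without the library with 162 URA3 reads. The part of these markers in the results was not tested. Of 4 osmostress genes (STL1, GPD1, CTT1 and HSP12), HSP12 was higher at 0.5 h (log2 fold change 1.27) and the other 3 were not called. All 4 were higher at 1 h.

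The promoters are shown first. The 10 genes neither all held the core motif of MBF nor all followed 1 course, and a link between motif and course was not tested. In the 300 bases before the start codon, ACGCGT, which reads the same on both strands, lay upstream of 8 of the 10 genes. It occurred in 209 of 5985 such windows in the genome (3.49%). POL1 held it at 208 and 173 bases before the start codon and POL12 at 222 and 199, counting to the first base of the match. PRI2 held it at 165 bases, POL3 at 166, POL31 at 107, POL32 at 142, POL2 at 115 and DPB2 at 134. PRI1 and DPB3 held none, nor did DPB4, the gene of the fourth subunit of polymerase epsilon, which is not among the 10. The core of the SBF site, CACGAAA, searched on both strands, occurred in 269 windows (4.49%) and in 0 of the 10. The stress response element AGGGG, searched on both strands, occurred in 1326 windows (22.2%) and in 2 of the 10, 223 bases before DPB3 and 13 bases before POL2. No match overlapped another. A match is a run of letters, not a measured binding site. The stretches below run from 230 to 100 bases before the start codon, read 5′ to 3′ on the coding strand from the R64 genome of RefSeq, with ACGCGT in capitals. They cover the 2 genes with a pair of matches, POL32 and POL2 with 1, and the 2 genes with none. POL1 is taken from chrXIV:429857-429987 (plus strand), POL12 from chrII:153710-153840 (minus), POL32 from chrX:517613-517743 (minus), POL2 from chrXIV:147982-148112 (plus), PRI1 from chrIX:374406-374536 (minus) and DPB3 from chrII:760064-760194 (plus). The opening bases of the PRI1 stretch belong to its neighbour MSL1, which is read from the other strand.
POL1: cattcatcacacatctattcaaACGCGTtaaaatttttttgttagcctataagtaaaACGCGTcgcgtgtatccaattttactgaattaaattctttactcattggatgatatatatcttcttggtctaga
POL12: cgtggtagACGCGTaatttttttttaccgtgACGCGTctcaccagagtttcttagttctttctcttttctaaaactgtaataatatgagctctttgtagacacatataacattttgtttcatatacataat
POL32: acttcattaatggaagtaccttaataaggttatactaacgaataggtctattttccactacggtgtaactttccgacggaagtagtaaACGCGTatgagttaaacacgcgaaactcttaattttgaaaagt
POL2: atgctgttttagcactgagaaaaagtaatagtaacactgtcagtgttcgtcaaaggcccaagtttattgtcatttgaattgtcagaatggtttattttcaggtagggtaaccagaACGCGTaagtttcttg
PRI1: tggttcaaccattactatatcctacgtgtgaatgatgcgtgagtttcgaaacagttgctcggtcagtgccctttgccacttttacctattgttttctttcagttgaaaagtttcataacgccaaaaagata
DPB3: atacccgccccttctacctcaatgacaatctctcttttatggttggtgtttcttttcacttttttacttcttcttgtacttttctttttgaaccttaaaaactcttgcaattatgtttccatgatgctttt
Both promoters with a pair of matches have them close together, whereas the single matches of POL32 and POL2 lie nearer to the gene.

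**Figure D1:**
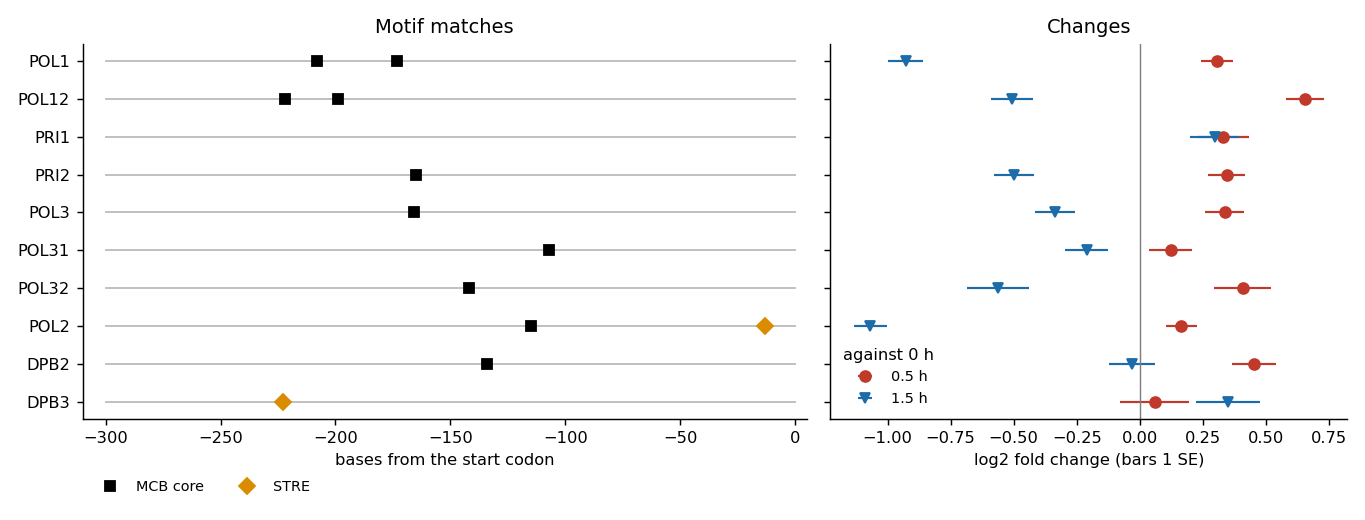
Left, matches of the MluI cell cycle box core (black squares) and of the stress response element (diamonds) in the 300 bases before the start codon of each of the 10 genes, in bases from the start codon. Right, log2 fold change of the same gene at 0.5 h (circles) and 1.5 h (triangles) against 0 h with bars of 1 SE from edgeR. The 2 genes with no black square, PRI1 and DPB3, are the 2 called higher at 1.5 h by edgeR, but DESeq2 calls neither, both calls are lost without some single libraries, and DPB2 is called higher too when scaled by library size alone.

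Before KCl the 10 mRNAs were of low to middling abundance. Per kilobase of coding sequence, the scale on which genes are compared here, POL31 stood at 50.8 ± 1.63 CPM per kb (SD, n = 2, as for each level of this kind) and PRI2 at 50.8 ± 0.39, and their libraries overlapped. DPB3 at 46.4 ± 3.22 and POL2 at 45.5 ± 3.72 came next and also overlapped. PRI1 (33.7 ± 1.19), POL1 (32.6 ± 2.56), POL32 (29.6 ± 2.90), DPB2 (27.8 ± 2.98) and POL12 (26.8 ± 0.85) formed a run in which each gene overlapped its neighbour. POL3, the catalytic subunit of polymerase delta, was lowest at 25.3 ± 1.24. The median of all genes tested was 55.7 CPM per kb, so all 10 lay below it, from the 20.4 percentile for POL3 to the 46.3 percentile for PRI2 and POL31. At 1.5 h the order had changed: DPB3 was highest at 59.0 ± 0.64 CPM per kb, at the 53.3 percentile, and POL1 lowest at 17.1 ± 0.26, at the 6.7 percentile. POL2 (21.6 ± 0.99), POL3 (20.3 ± 1.72) and POL32 overlapped in a chain, with POL32 at the 9.6 percentile against 25.6 at 0 h. Of the coding sequences, 206 overlap another, and none of the 10 is among them. PRI1 ends 78 bases from EGH1 and DPB2 57 bases from BET2, each on the opposite strand, and the strandedness of counting is not given in the sources used here.

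Most of the 10 genes rose early in KCl, and 7 then fell below their starting level by 1.5 h (4 when scaled by library size alone). The highest mean was at 0.5 h and the lowest at 1.5 h for 8 genes. The ratio of highest to lowest mean was 2.35 for POL2, 2.34 for POL1, 2.25 for POL12, 1.98 for POL32, 1.80 for PRI2, 1.58 for POL3, 1.41 for DPB2 and 1.25 for POL31. PRI1 instead was highest at 1 h (ratio 1.37) and DPB3 at 1.5 h (1.27), and both were lowest at 0 h. Over the 5 times together, 9 of the 10 changed in edgeR's quasi-likelihood test with Benjamini-Hochberg adjustment over all 5943 genes tested, against 91.7% of all genes, so that count sits at the background. DPB3 was the exception at an adjusted p of 0.088, and was called with upper-quartile scaling.

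**Figure D2:**
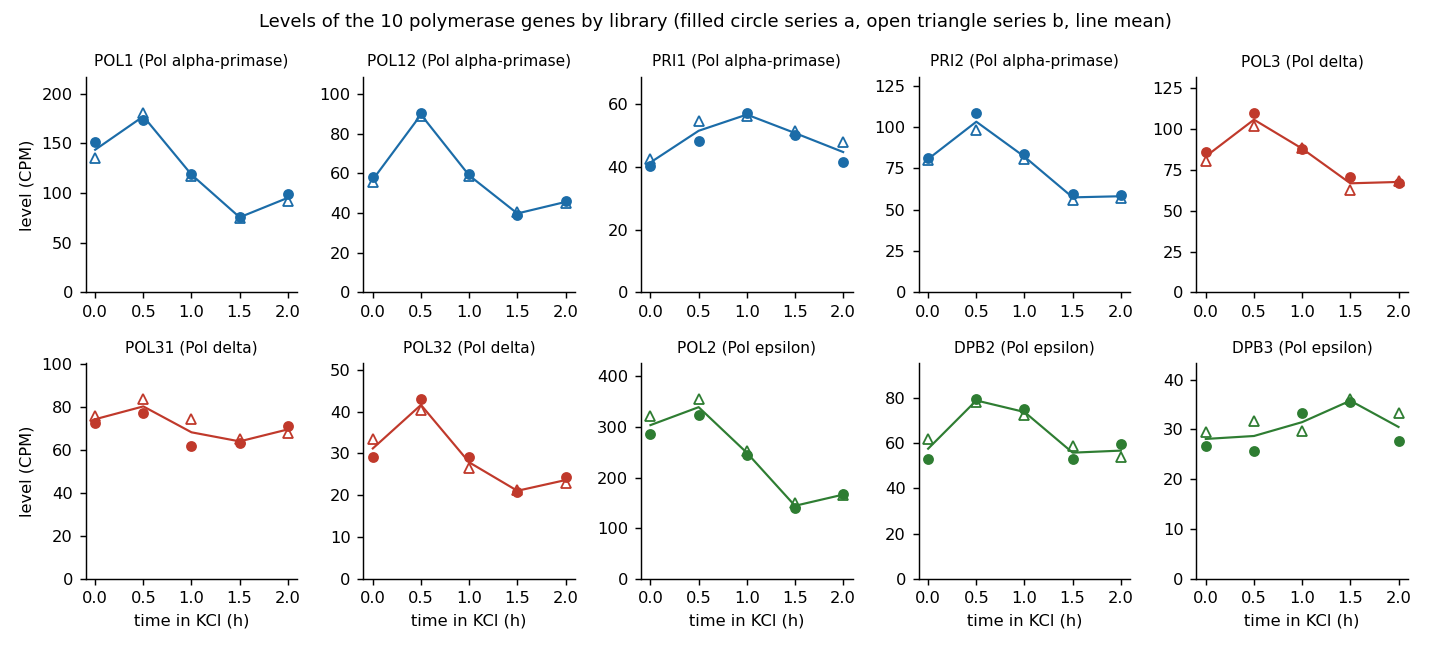
Level (CPM, each axis from 0) of each of the 10 genes against hours in KCl, 1 panel per gene, with series a as filled circles, series b as open triangles and the mean of both as a line. POL1, POL12 and POL2 fall most steeply between 0.5 and 1.5 h, POL31 stays within 61.9 to 83.7 CPM, and DPB3 peaks at 1.5 h.

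At 0.5 h against 0 h, 8 of the 10 genes rose and 0 fell, where 53.7% of all genes were called, 26% as higher and 27.6% as lower. Without a parallel culture kept free of KCl, an effect of KCl cannot be told apart from one of elapsed time. The median log2 change of the 10 was 0.33 and that of all genes 0.00. Libraries of the 2 times did not overlap for 9 genes, all higher, against 37.3% of all genes higher and 38.1% lower without overlap. POL12 rose most (log2 fold change 0.65, SE 0.08, adjusted p = 6.7e-07) and POL2 least of those called (0.16, SE 0.06, adjusted p = 0.031). POL31 (0.12, SE 0.09, adjusted p = 0.25) and DPB3 (0.06, SE 0.14, adjusted p = 0.74) did not pass. The direction was the same in both series for 9 genes, DPB3 being the exception. Leaving out the 0 h library of series a brought the count to 5, with POL2 at 0.08 (adjusted p = 0.35), PRI1 at 0.30 (0.062) and POL32 at 0.31 (0.070). Without the 0.5 h library of series b the calls of POL2 (0.09, adjusted p = 0.35) and PRI1 (0.22, adjusted p = 0.17) were lost, and with library size alone as the scaling that of POL2 (0.09, adjusted p = 0.27).

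At 1 h against 0 h the 10 had parted. PRI1 (0.45, SE 0.10, adjusted p = 0.00079) and DPB2 (0.35, SE 0.09, adjusted p = 0.0028) were higher. POL1 (-0.28, SE 0.07, adjusted p = 0.0017) and POL2 (-0.28, SE 0.06, adjusted p = 0.00085) were lower, and the other 6 were not called. These 2 higher and 2 lower calls compare with 56.9% of all genes called, 28.9% higher and 28.1% lower, and the median of the 10 was 0.03. Between 0.5 h and 1 h, 7 of the 10 fell and 0 rose (65% of all genes were called, 32.1% lower and 32.9% higher), led by POL12 (-0.60), POL32 (-0.59) and POL1 (-0.59). Without the 0 h library of series a, DPB2 at 1 h was no longer called (0.25, adjusted p = 0.060). POL31 between 0.5 h and 1 h (-0.21, adjusted p = 0.033) was lost without the 1 h library of series a (adjusted p = 0.25), without the 0.5 h library of series b (0.29) and with library size alone (0.15).

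At 1.5 h against 0 h, 7 of the 10 were lower and 2 higher, where 76.5% of all genes were called, 39.1% as lower and 37.5% as higher. The median of the 10 was -0.42 and that of all genes -0.01. POL2 (-1.07, SE 0.07, adjusted p = 9.1e-12) and POL1 (-0.93, SE 0.07, adjusted p = 2.2e-10) fell most, followed by POL32, POL12 and PRI2 at -0.56 to -0.50 and POL3 at -0.34. DPB3 (0.35, SE 0.13, adjusted p = 0.017) and PRI1 (0.30, SE 0.10, adjusted p = 0.0095) were higher. All 10 moved the same way in both series, and libraries of the 2 times overlapped for DPB2 alone (-0.03, SE 0.09, adjusted p = 0.78). Without overlap 7 genes were lower and 2 higher, against 43.8% and 42.7% of all genes. With library size alone as the scaling, which put the median of all genes at 0.31, the split was 3 higher and 4 lower. Of all 5943 genes, 3280 were higher and 1515 lower under that scaling. DPB2 was then called higher (0.29, adjusted p = 0.0078), POL31 turned to 0.11 (adjusted p = 0.26), and POL3 (-0.02, adjusted p = 0.85) and POL32 (-0.25, adjusted p = 0.075) were no longer called. These 4 values lie below that shifted median, with DPB2, which was not called in the main fit, nearly level with it. Setting them against that median restores the centring of the main fit and gives no separate check. DESeq2 called 6 lower and 0 higher, with PRI1 at an adjusted p of 0.054, DPB3 at 0.063 and POL31 at 0.13. The calls of PRI1 and DPB3 were lost without the 0 h library of series a (adjusted p = 0.066 and 0.12) and without the 1.5 h library of series b (0.061 and 0.079). POL31 was lost without any 1 of the 4 libraries of these times (adjusted p = 0.051 to 0.15) and with upper-quartile factors (0.19).

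At 2 h against 0 h, 6 of the 10 were lower and 0 higher, against 74.9% of all genes called, 37% lower and 37.8% higher, with a median of -0.31. POL2 (-0.87, adjusted p = 2.8e-10) and POL1 (-0.61, adjusted p = 1.2e-07) were again furthest below 0 h, and PRI2 (-0.48), POL32 (-0.41), POL12 (-0.32) and POL3 (-0.30) were also called. With library size alone POL32 (-0.13), POL12 (-0.04) and POL3 (-0.01) were not called and the split was 3 lower and 3 higher, the higher genes being PRI1 (0.43, adjusted p = 0.00084), DPB3 (0.44, adjusted p = 0.0054) and DPB2 (0.24, adjusted p = 0.027). Between 1 h and 1.5 h, 7 of the 10 fell and 0 rose (68.2% of all genes were called, 34% lower and 34.1% higher), with POL2 at -0.78, POL1 at -0.65 and POL12 at -0.56. With library size alone 4 fell and 2 rose, POL31 (0.20) and DPB3 (0.53), and with upper-quartile factors 6 fell and DPB3 rose (0.32). Between 1.5 h and 2 h, POL1 (0.32, SE 0.08, adjusted p = 0.0023) and POL2 (0.20, SE 0.08, adjusted p = 0.037) rose, where 25% of all genes were called, 15.5% as higher and 9.47% as lower. POL2 was not called there with any of 4 alternatives (DESeq2 and the scalings by its size factors, library size and upper quartiles), nor without any 1 of the 4 libraries concerned (adjusted p = 0.053 to 0.19).

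**Figure D3:**
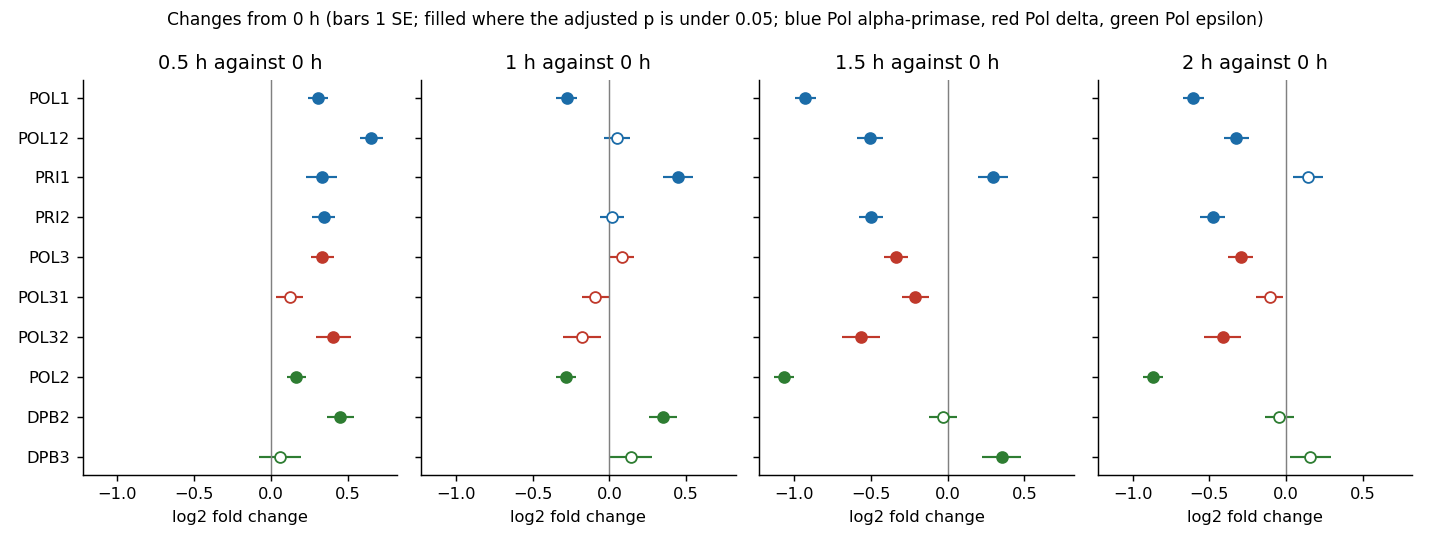
Log2 fold change of each of the 10 genes against 0 h at 4 times, with bars of 1 SE; filled points passed edgeR's test at an adjusted p under 0.05 and open points did not. All 8 filled points at 0.5 h lie right of 0, and at 1.5 h PRI1 and DPB3 lie right of 0 while 7 genes lie left of it, of which POL31 moves to the right with library size alone as the scaling.

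In polymerase alpha-primase, the catalytic subunit gene POL1 (YNL102W, chrXIV:430087-434493) stood at 151 CPM in series a and 135 in series b at 0 h, 174 and 180.4 at 0.5 h, 119 and 118 at 1 h, 76.4 and 74.8 at 1.5 h, then 98.9 and 91.5 at 2 h. The 1.5 h libraries were thus lowest, with no overlap between them and any other time. POL12 (YBL035C, chrII:151493-153610), the regulatory B subunit that tethers the enzyme, went from 58.1 and 55.5 CPM at 0 h to 90.3 and 88.7 at 0.5 h, 59.4 and 58.4 at 1 h, 38.9 and 40.7 at 1.5 h, then 46.3 and 44.9 at 2 h. Its pair of 0.5 h libraries lay above those of every other time. PRI1 (YIR008C, chrIX:373077-374306), the catalytic subunit of primase, had 40.4 and 42.5 CPM at 0 h, 48.3 and 54.8 at 0.5 h, 57.2 and 56.2 at 1 h, 50.2 and 51.5 at 1.5 h, then 41.6 and 48.0 at 2 h. Its 2 h libraries overlapped those of 0 h (log2 fold change 0.14, SE 0.10, adjusted p = 0.21). PRI2 (YKL045W, chrXI:353493-355079), the large regulatory subunit of primase, had 81.1 and 80.2 CPM at 0 h, 108 and 97.9 at 0.5 h, 83.6 and 80.5 at 1 h, 59.3 and 55.6 at 1.5 h, then 59.1 and 57.2 at 2 h. The primase genes therefore parted after 0.5 h: PRI2 fell with POL1 and POL12, and PRI1 kept a level above its start until 1.5 h.

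In polymerase delta, the catalytic subunit gene POL3 (YDL102W, chrIV:276872-280165) had 86.2 and 80.4 CPM at 0 h, 109.8 and 102 at 0.5 h, 87.8 and 88.3 at 1 h, 70.8 and 62.8 at 1.5 h, then 66.9 and 68.4 at 2 h. POL31 (YJR006W, chrX:449202-450665), the small subunit that joins the catalytic subunit to Pol32, had 72.7 and 76.1 CPM at 0 h, 77.1 and 83.7 at 0.5 h, 61.9 and 74.7 at 1 h, 63.1 and 65.1 at 1.5 h, then 71.4 and 67.9 at 2 h. It had the smallest ratio of highest to lowest mean of the 10, and the 2 series differed at 1 h by more than the means of 1 h and 1.5 h did. POL32 (YJR043C, chrX:516461-517513) encodes the nonessential subunit that binds the sliding clamp PCNA, and is needed for break-induced replication. Its libraries had 29.0 and 33.4 CPM at 0 h, 43.0 and 40.3 at 0.5 h, 29.2 and 26.6 at 1 h, 20.8 and 21.3 at 1.5 h, then 24.3 and 22.9 at 2 h, from 93 to 297 reads each. The 0.5 h pair lay above all other libraries and the 1.5 h pair below all others, while the 0 h and 1 h pairs overlapped.

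The POL32 mRNA was higher than its 0 h level at 0.5 h (0.41, SE 0.11, adjusted p = 0.0052) and lower at 1.5 h (-0.56, SE 0.12, adjusted p = 0.00036) and 2 h (-0.41, SE 0.12, adjusted p = 0.0052). At 1 h it was not called (-0.18, SE 0.12, adjusted p = 0.22), and the series went apart there, with 0.01 in series a and -0.32 in series b. From 0.5 h to 1 h it fell by 0.59 on the log2 scale (SE 0.11, adjusted p = 0.00014) and from 1 h to 1.5 h by 0.38 (SE 0.12, adjusted p = 0.0087). The fall at 1.5 h lost its call with library size alone (-0.25, adjusted p = 0.075). The fall at 2 h lost its call without the 0 h library of series b (-0.31, adjusted p = 0.074), without the 2 h library of series b (-0.36, adjusted p = 0.072) and with library size alone (-0.13, adjusted p = 0.34). The rise at 0.5 h lost it without the 0 h library of series a (0.31, adjusted p = 0.070). The fall from 1 h to 1.5 h lost it with upper-quartile factors (-0.27, adjusted p = 0.055), DESeq2 (adjusted p = 0.063) and library size alone (-0.06, adjusted p = 0.68). RNH1, the RNase H1 gene that the study's title names beside Pol32, had a log2 change of -0.16 (SE 0.08, adjusted p = 0.12) at 0.5 h and fell at 1.5 h (-0.36, SE 0.08, adjusted p = 0.0006). RNase H enzymes remove RNA paired with DNA. In the 3 genes of RNase H2, RNH201 (0.66) and RNH202 (0.47) rose at 0.5 h and RNH203 fell at 1.5 h (-0.60, adjusted p = 0.0039). In the main fit RNH1 alone of these 4 genes had a negative value at 0.5 h. Scaled by library size alone, 2 of the 4 were higher and 1 lower at 0.5 h. That scaling put 1153 of all 5943 genes higher and 1996 lower at 0.5 h. Without the 0.5 h library of series a, the median of the 4 was 0.37 in place of 0.41, and not all calls stayed the same. At 1.5 h, library size alone gave 0 of the 4 lower and 1 higher. Of all 5943 genes, 3280 were then higher and 1515 lower.

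In polymerase epsilon, the catalytic subunit gene POL2 (YNL262W, chrXIV:148212-154880) had 286 and 321 CPM at 0 h, 323 and 354 at 0.5 h, 245 and 253 at 1 h, 139 and 149 at 1.5 h, then 167 and 165 at 2 h. The higher 0 h library and the lower 0.5 h library were nearly level, and the 1.5 h libraries lay below all others. DPB2 (YPR175W, chrXVI:888974-891043), the essential second subunit that ties the enzyme to the replicative helicase, had 53.2 and 61.9 CPM at 0 h, 79.4 and 78.4 at 0.5 h, 75.0 and 72.6 at 1 h, 53.0 and 58.6 at 1.5 h, then 59.6 and 53.8 at 2 h. Its 0.5 h and 1 h libraries lay above the other 6, and those of 1.5 h and 2 h overlapped 0 h. DPB3 (YBR278W, chrII:760294-760899), a small histone-fold subunit, had 26.7 and 29.5 CPM at 0 h, 25.8 and 31.6 at 0.5 h, 33.3 and 29.6 at 1 h, 35.5 and 36.1 at 1.5 h, then 27.7 and 33.3 at 2 h. Only the 1.5 h pair lay above all other libraries of this gene. DPB4 (YDR121W, chrIV:693585-694175), the histone-fold partner of Dpb3, had 44.1 and 40.9 CPM at 0 h, 51.8 and 58.6 at 0.5 h, 39.4 and 37.3 at 1 h, 32.3 and 32.4 at 1.5 h, then 29.0 and 33.6 at 2 h. DPB4 was higher at 0.5 h (0.39, SE 0.10, adjusted p = 0.0028) and lower at 1.5 h (-0.39, SE 0.11, adjusted p = 0.0026), without ACGCGT in its window, and the call at 0.5 h was lost without the 0.5 h library of series b (0.28, adjusted p = 0.083). At 1.5 h the genes of these histone-fold partners had opposite signs in edgeR's fit, but DPB3 was not called there by DESeq2 (adjusted p = 0.063) or without some single libraries, and DPB4 was not called with library size alone (-0.07, adjusted p = 0.53).

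Whether subunits of 1 enzyme kept their proportions was asked with the ratio of reads per kilobase to the catalytic subunit in the same library, which does not depend on the scaling. An exact permutation test over all 945 ways to pair the 10 libraries was run for 7 ratios, with Benjamini-Hochberg adjustment over the 7. In polymerase epsilon both ratios changed over the course (exact p = 0.00106 for each, the smallest these permutations can give, adjusted p = 0.0037). DPB2 to POL2 went from 0.600 and 0.622 at 0 h to 0.792 and 0.713 at 0.5 h, 0.988 and 0.926 at 1 h, 1.23 and 1.27 at 1.5 h, then 1.15 and 1.05 at 2 h. DPB3 to POL2 went from 1.03 and 1.01 to 0.881 and 0.983, 1.50 and 1.29, 2.81 and 2.67, and 1.83 and 2.22 at the same times. Both were thus highest at 1.5 h, with libraries apart from all other times. In alpha-primase, PRI1 to POL1 rose from a mean of 1.04 at 0 h and at 0.5 h to 1.72 at 1 h and 2.41 at 1.5 h, and stood at 1.68 at 2 h (exact p = 0.00952, adjusted p = 0.022). PRI2 to POL1 went from 1.56 to 2.11 at 1.5 h (exact p = 0.0148, adjusted p = 0.026). POL12 to POL1 went from 0.826 at 0 h to between 0.998 and 1.10 later (exact p = 0.0212, adjusted p = 0.03). In polymerase delta neither ratio was called: POL32 to POL3 had means of 1.17, 1.23, 0.992, 0.990 and 1.09 at the 5 times (exact p = 0.194, adjusted p = 0.19), and POL31 to POL3 had means between 1.71 and 2.32 (exact p = 0.116, adjusted p = 0.14). With the times permuted within each series as a replicate block, the 2 ratios of polymerase epsilon kept their call (adjusted p = 0.029) and the 3 of alpha-primase did not (exact permutation, adjusted p = 0.073 to 0.088). Leaving out single libraries left 3 to 5 ratios called. PRI2 to POL1 was lost without either library of 1 h, 1.5 h or 2 h (exact permutation, adjusted p = 0.0533 to 0.0874), and POL12 to POL1 without either library of 1 h, that of 2 h in series a or that of 1.5 h in series b (exact permutation, adjusted p = 0.0533 to 0.0711).

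**Figure D4:**
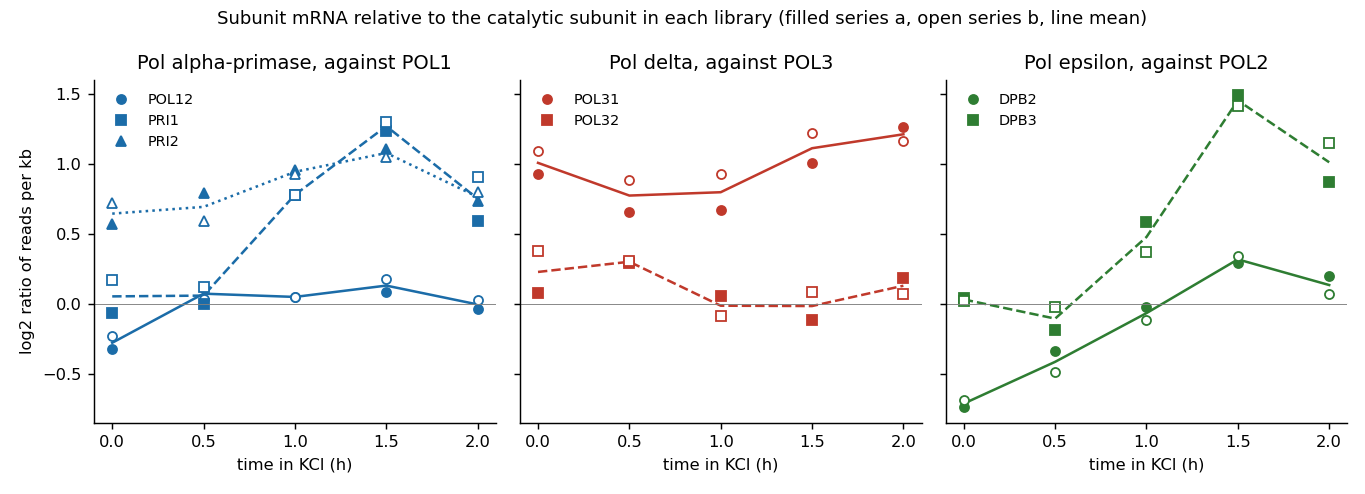
Log2 ratio of reads per kilobase of each subunit gene to the catalytic subunit gene of its enzyme, against hours in KCl, with series a filled, series b open and lines through the means. For POL2, the ratios of DPB2 and DPB3 are highest at 1.5 h (linear means 1.25 and 2.74), whereas the ratio of POL32 to POL3 stays between 0.923 and 1.30 in all 10 libraries.

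Likeness of profile was described by Pearson's r of log2 CPM over the 10 libraries, which share their time points, with no test. Among the 45 pairs of the 10 genes the median r was 0.745, with 23 pairs over 0.7 and 10 pairs below 0. The pairs most alike were PRI2 with POL3 (0.985), POL1 with POL2 (0.964) and POL12 with POL32 (0.963), and the least alike were POL1 with DPB3 (-0.697). POL12 with PRI2, both of alpha-primase, followed at 0.956. Outside the 10, the 6 of 5603 genes most like POL32 were REX4 (0.990), GIN4 (0.989), SRP68 (0.986), LRG1 (0.986), CLN1 (0.984), the G1 cyclin gene, and SUI2 (0.981), where the median over genes was -0.04. REX4, the closest, had mean levels of 39.3, 57.7, 33.3, 20.4 and 24.4 CPM at the 5 times. The mean profile of the 10 was matched best by TRM5 and MAK11 (0.993 each), SHR3, CSI2 and RRP36 (0.991 each) and YBL028C (0.990). None of these 12 genes held ACGCGT in its 300 bases, which is near the share of 3.49% of all windows searched.

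The motif was also set against the calls across the genome. Of the 8 polymerase genes with ACGCGT, 7 were higher at 0.5 h and 7 lower at 1.5 h, where 26% of all genes were higher and 39.1% lower. Scaled by library size alone, POL31, 1 of these 7, and DPB2, the eighth, had positive values at 1.5 h. Of the 2 without it, 1 was higher at 0.5 h and 2 were higher at 1.5 h, but DESeq2 called 0 genes of the 10 higher at 1.5 h, and both calls were lost without some single libraries. DPB4, also without the motif, was higher at 0.5 h (0.39) and lower at 1.5 h (-0.39). Among 200 other tested genes with ACGCGT, 41.0% were higher and 13.5% lower at 0.5 h, with a median of 0.19. At 1.5 h, 31.0% of them were higher and 38.0% lower, with a median of -0.03, where that of all genes was -0.01. Scaled by library size alone, 64 of the 200 were higher and 36 lower at 0.5 h, with a median of 0.11. Of all 5943 genes, 1153 were then higher and 1996 lower, with a median of -0.08. At 1.5 h that scaling gave 109 of the 200 higher and 47 lower. Of all 5943 genes, 3280 were higher and 1515 lower at 1.5 h under it. Without the 0.5 h library of series a, the median of the 200 at 0.5 h was 0.18. The polymerase genes with the motif were not tested against these 200.

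The other genes of the replication fork were described by their counts, from lists chosen with earlier results of these data known. At 0.5 h the shares of all genes were 26% higher and 27.6% lower, and those at 1.5 h were 37.5% and 39.1%. Scaled by library size alone, 1153 of all 5943 genes were higher and 1996 lower at 0.5 h. At 1.5 h that scaling gave 3280 higher and 1515 lower. Of 11 genes of the replicative helicase (the MCM proteins, Cdc45 and GINS), 9 rose and 0 fell at 0.5 h (6 and 0 with library size alone). Their median was 0.37, and CDC45 (0.76) and MCM7 (0.60) were among those that rose. At 1.5 h, 0 rose and 7 fell, with MCM7 at -0.92. With library size alone 1 helicase gene was higher and 1 lower at 1.5 h, as MCM3 (-0.20, called) turned to 0.12 and MCM2 (-0.12, not called) to 0.20. Of 23 partners of the polymerases at the fork, 17 rose and 1 fell at 0.5 h (13 and 1 with library size alone), led by the flap nuclease gene RAD27 (0.82) and the PCNA gene POL30 (0.81). At 1.5 h, 5 of the 23 were higher and 10 lower: RFA1, of the single-strand binding protein RPA, was higher at 0.94 and RFC5, of the clamp loader, lower at -0.80. Under library size alone these counts became 11 higher and 5 lower. Of 14 genes of origin licensing and firing, 4 rose and 2 fell at 0.5 h, led by CDC6 (1.31). At 1.5 h, 5 were higher and 6 lower, shares near those of all genes. With library size alone the counts of origin genes were 3 and 3 at 0.5 h, and 8 and 1 at 1.5 h. Of 6 genes of other DNA polymerases, 1 rose (REV1, 0.17) and 1 fell (REV3, -0.50) at 0.5 h. These are translesion and repair polymerases, and MIP1, the gene of the mitochondrial DNA polymerase (-0.12 at 0.5 h, not called). At 1.5 h, POL4 was higher (0.38) and REV1 lower (-0.69). Scaled by library size alone, 0 of the 6 rose and 2 fell at 0.5 h, and at 1.5 h 5 rose and 1 fell. Without the 0.5 h library of series a, the counts at 0.5 h were 7 higher and 0 lower of the helicase genes, 13 and 0 of the partners, 3 and 2 of the origin genes and 0 and 1 of the other polymerases.

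Precursor and cell cycle genes moved over the same hours, in which 53.7% of all genes were called at 0.5 h and 76.5% at 1.5 h. Of 7 genes of dNTP supply, 5 rose at 0.5 h, and 5 fell and 1 rose at 1.5 h. RNR1, the large subunit of ribonucleotide reductase, had 477 CPM at 0 h, 677 at 0.5 h and 94.4 at 1.5 h (-2.33, SE 0.07, adjusted p = 4.8e-17), whereas its paralog RNR3 rose from 11.2 to 42.5 CPM at 1.5 h (1.93, SE 0.17, adjusted p = 2e-09). Of 10 G1/S regulators, 7 rose and 1 fell at 0.5 h, with the S-phase cyclin genes CLB6 (1.69) and CLB5 (0.93) foremost, and 1 was higher and 6 lower at 1.5 h, with CLN2 at -1.33. All 4 mitotic markers (CLB1, CLB2, CDC5 and CDC20) rose at 0.5 h and fell at 1.5 h, with a median of -1.02. Of the 8 core histone genes, whose mRNAs mark S phase, 0 rose and 3 fell at 0.5 h and all 8 fell at 1.5 h (median -0.70). Scaled by library size alone, 5 of the 8 histone genes and 3 of the 4 mitotic markers were lower at 1.5 h, and 0 of either were higher. Of the 10 G1/S regulators 3 were then lower and 2 higher, and of the 7 dNTP genes also 3 and 2. Of all 5943 genes, 1515 were lower and 3280 higher under that scaling. Without the 0.5 h library of series a, 4 dNTP genes, 7 G1/S regulators and 4 mitotic markers were higher at 0.5 h. The phase of the cells was not measured, and the part of a shift in cell cycle phase in the polymerase changes was not tested.

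**Figure D5:**
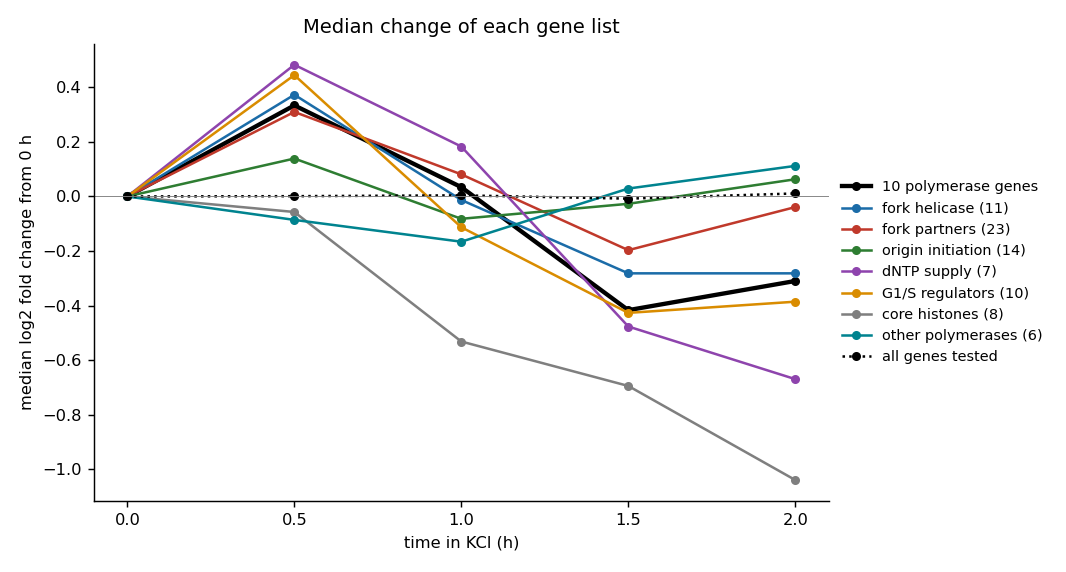
Median log2 fold change from 0 h of the 10 polymerase genes (thick black line), of 7 lists of other replication, cell cycle and histone genes (coloured lines, number of genes in brackets) and of all genes tested (dotted), against hours in KCl. The polymerase genes go from 0.33 at 0.5 h to -0.42 at 1.5 h, where the lists of G1/S regulators (-0.43) and dNTP supply (-0.48) also lie at 1.5 h, while the core histones lie at -0.06 at 0.5 h and reach -1.04 at 2 h; with library size alone the median of all genes shifts up by 0.32 at 1.5 h.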

How the data were processed

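Poly(A) RNA libraries made from random-primed cDNA, per the labels' protocols, gave 1 deposited table with a read count and an RPKM per coding sequence and library. The counts were raw per the file headers, but 2.77% ended in 0.5, so they were handled as the authors' estimated counts and rounded to whole numbers (0 of the 10 genes' counts needed it). Genome build R64 comes from the submitters' processing notes, and no aligner, counting tool or strandedness is given in the sources used here. The RPKM were not used. Of 65885 lines, 1302 gene and mRNA lines and 4693 identical second copies were left out, which left 5989 coding sequences, 5975 of them placed exactly as a gene of R64.

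The model was edgeR's quasi-likelihood fit of all 10 libraries, with time as its only term, after filterByExpr (5943 kept, 46 left out) and TMM scaling (factors 0.877 to 1.16). Tests were two-sided, and genes were called at a p under 0.05 after Benjamini-Hochberg adjustment over the 5943. An SE is the absolute log2 fold change divided by the square root of F. The biological coefficient of variation was 4.05%, and replicates differed by more than counting error (chi-square per degree of freedom 1.95 to 3.14). The p-values measure the spread between the 2 libraries of a time, 1 from each of the independent replicate series of the design text. That text pairs the libraries of a series, and the deviations of series a from the time means correlated at -0.11 to 0.31 between times across 5613 genes, which are not independent replicates.

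Subunit ratios were tested by exact permutation. Promoter windows were read from R64, where all 5985 coding sequences with 1 strand opened with ATG. Alternatives were other scalings, no filter, DESeq2, a replicate block and leaving out each library. The counts of other gene lists with library size alone and without the 0.5 h library of series a were added after seeing the data. All 10 genes are named; from each list up to 4 called genes with the largest change at 0.5 h and 1.5 h could be named. The 10 genes and the lists were chosen with earlier results of these data known. Software was Python 3.11.15 (numpy 2.4.6, pandas 2.3.3, scipy 1.17.1, matplotlib 3.10.9) and R 4.3.3 (edgeR 4.0.16, limma 3.58.1, DESeq2 1.42.0).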

Additional observations from a re-analysis of the deposited data

How the results depend on the processing

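Of 1120 recomputed values of the 10 genes (10 genes, 7 comparisons, 16 alternatives), 1046 kept direction and call, 42 lost the call, 5 gained it, 23 uncalled values changed sign and 4 reversed. For the other named genes these numbers were 1790, 64, 23, 37 and 6 of 1920. A reversed value changed sign and was called in the main fit or in the alternative, so it need not have been called in both. All reversals came with library size alone, which leaves out the correction for RNA composition and shifted the median of all genes by 0.32 at 1.5 h, 0.28 at 2 h and 0.32 from 1 h to 1.5 h. They were POL31 (0.11) and DPB2 (0.29) at 1.5 h, DPB2 at 2 h (0.24), POL31 from 1 h to 1.5 h (0.20) and, at 1.5 h, CDC8 (0.30), MCM2 (0.20), MCM3 (0.12), ORC3 (0.0041), RAD27 (0.22) and RNR4 (0.0423). From 1.5 h to 2 h, 1 gene was called in place of 2 under DESeq2's size factors, library size alone, upper-quartile factors and DESeq2. DESeq2 called 754 of all genes there in place of 1485. With the replicate block, 2 subunit ratios were called in place of 5, and no call of the 10 genes changed. Leaving out each library gave 5 to 8 genes called at 0.5 h, 3 to 4 at 1 h, 6 to 9 at 1.5 h and 5 to 6 at 2 h. The same gave 6 to 7 from 0.5 h to 1 h, 7 to 8 from 1 h to 1.5 h and 1 to 2 from 1.5 h to 2 h, 9 over the course and 3 to 5 ratios. The library left alone at a time was then assumed to vary like those of the other times. The cause of these shifts was not tested. Depth limits POL32, at 93 to 297 reads per library, and DPB3 more than POL2.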
